A study of Mus musculus with 18 samples.

Results

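The right ventricle (RV) of mouse hearts was compared after 4 h and after 0 h of cold ischemic storage (CIS). The comparison rested on the libraries titled RV at these storage times, 6 of the 18 libraries of the series, with 3 libraries at each time. It covered all genes, and 14622 passed the filter on low counts. Hearts came from mice whose strain the labels give as C57B/L6 and whose age as 12 weeks. The study's methods name wild type C57BL/6J mice of a younger age, and by those methods every mouse had heparin and isoflurane. Every heart was flushed with histidine-tryptophan-ketoglutarate (HTK) preservation solution. The 0 h hearts went straight to the perfusion apparatus, and the 4 h hearts first lay in ice-cold HTK. All hearts were then reperfused ex vivo for 60 min with Krebs buffer before LV and RV were frozen, so that the 0 h group was also excised, flushed and reperfused. The perfusate was a buffer, and the hearts therefore met no blood and no recipient during reperfusion. The study's methods describe a balloon placed in the RV during perfusion, and whether it was used in the hearts taken for RNA is not given in the sources used here. Both sexes were used by the methods, and the labels give no sex of a library. The labels do not say that the libraries of a group are separate hearts, so that p-values measure the spread between these libraries.

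Cold storage lowers the metabolic rate of the donor heart, but ATP falls slowly and ions and metabolites build up. Warm oxygenated buffer then brings a burst of oxidants, calcium entry and the release of molecules from damaged cells, which Toll-like receptors and other sensors of the innate immune system detect. These sensors act through NF-kB, AP-1 and interferon regulatory factors, which switch on cytokine, adhesion molecule and interferon-induced genes. The RV is the thin-walled chamber that pumps into the pulmonary circulation and is prone to fail early after heart transplantation.

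The 6 libraries held between 25951817 and 43417220 estimated counts, and genes of the mitochondrial genome took 27.3% ± 5.0 of them at 0 h and 26.9% ± 0.77 at 4 h (SD, n = 3; exact two-sided permutation test, p = 0.9, where 0.1 is the smallest p that 3 against 3 allows). Levels are given as CPM, the counts of a gene scaled to a common library size after TMM adjustment. Markers of ventricular and atrial cardiomyocytes were compared, which can tell ventricle from atrium but not RV from LV. The 8 ventricular cardiomyocyte markers, among them Myl2 and Myh6, summed to 59454 to 68961 CPM over the 6 libraries, and the 8 atrial markers to 85.7 to 427 CPM. Some facts of single libraries touch the results. In 0 h replicate 1, 632 of the 902 genes later called higher had their highest 0 h level (70.1%, against 31.1% of all genes tested). All 52 interferon-induced genes had their highest 4 h level in 4 h replicate 3. The Y-linked gene Ddx3y was at 81.7, 1.82 and 60.8 CPM at 0 h and 114, 99.3 and 1.73 CPM at 4 h, so that 0 h replicate 2 and 4 h replicate 3 stood apart. Red blood cell markers summed to 105.6 CPM in 4 h replicate 1 and to 2.35 to 6.35 CPM in the other libraries.

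After 4 h of storage, 902 genes were higher (6.17% of all genes tested) and 572 lower (3.91%) by the thresholds of the study, a fold above 1.5 at an edgeR adjusted p below 0.1. Of these, 685 higher and 300 lower genes differed by more than 2-fold. The 3 libraries of 4 h lay all above those of 0 h for 892 of the 902 higher genes, against 15.9% of all genes tested, and all below for 568 of the 572 lower genes, against 15.9%. This follows largely from the calls being made on the same libraries and is no separate evidence. The median log2 fold change over all genes was 0.003, close to 0. Interferon-induced, adhesion and cytokine genes were among the largest increases, and endothelial and circadian genes among the largest decreases. With the replicate number as a block, a pairing taken from these same values, 1236 genes were higher (8.45%) and 790 lower (5.4%). The counts varied with the library left out. Without 0 h replicate 1, 821 higher and 619 lower genes were called, without 0 h replicate 2, 235 and 86, and without 0 h replicate 3, 273 and 79. Without 4 h replicate 1 there were 496 and 157, without 4 h replicate 2, 641 and 281, and without 4 h replicate 3, 647 and 270. Each of these fits tested 14860 to 14993 genes, and a list count given below for a fit belongs beside its counts over all genes here. List counts with the block belong beside the 8.45% and 5.4%. Of all calls, 220 higher and 65 lower were made in each of the 6 fits that left out a library of 0 or 4 h.

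**Figure D1:**
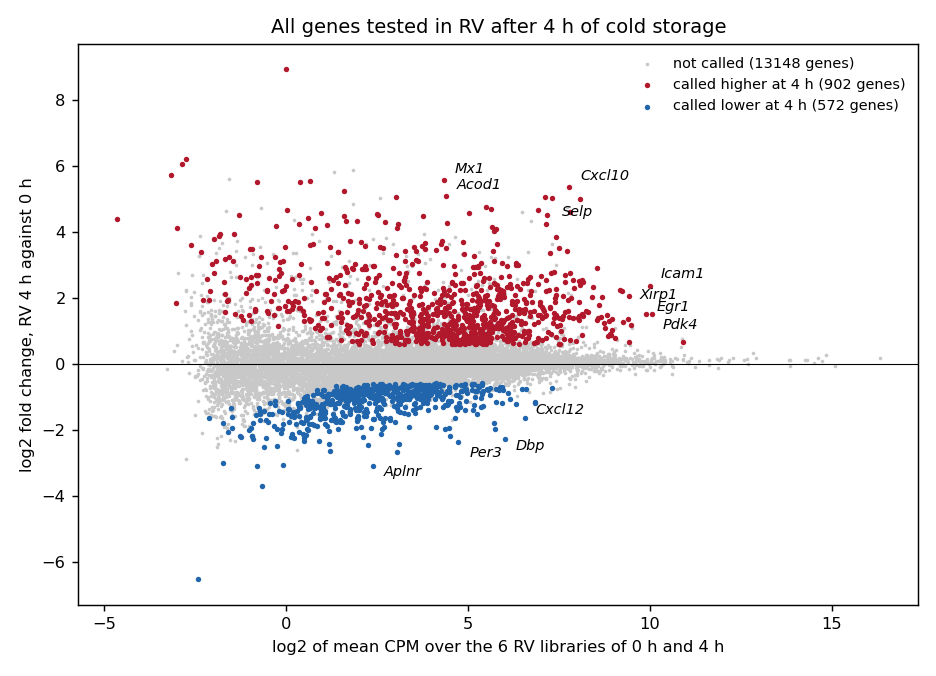
Each point is a gene tested in RV, with the log2 of its mean CPM over the 6 libraries on the x axis and its log2 fold change at 4 h against 0 h on the y axis. The 902 genes called higher and the 572 called lower are coloured, and among the labelled genes Mx1 is highest at 5.56 and Aplnr lowest at -3.08.

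The immediate-early genes encode transcription factors that cells make within minutes of a stimulus, without new protein synthesis. Of 26 tested, 18 rose (69.2%, against 6.17% of all genes), none fell, and their median log2 fold change was 1.40 against 0.003 for all genes. Fosb, a subunit of AP-1, was at 202, 184 and 266 CPM at 0 h and 962, 901 and 1128 CPM at 4 h (log2 2.2, standard error 0.29, edgeR adjusted p = 0.00699). Atf3, a stress-induced repressor, was at 326, 155 and 129 CPM at 0 h and 1146, 763 and 964 CPM at 4 h (log2 2.24, standard error 0.38, edgeR adjusted p = 0.0136). Myc, a driver of growth genes, was at 18.9, 11.97 and 9.58 CPM at 0 h and 112, 78.1 and 57.1 CPM at 4 h (log2 2.61, standard error 0.33, edgeR adjusted p = 0.00539). In these genes the groups did not overlap, and 0 h replicate 1 was the highest of its group in Atf3 and Myc but not in Fosb. Egr1 was among the most abundant genes called, at 789, 299 and 388 CPM at 0 h and 1508, 1265 and 1408 CPM at 4 h (log2 1.5, standard error 0.37, edgeR adjusted p = 0.0457), and without 0 h replicate 2, 0 h replicate 3 or 4 h replicate 1 it was not called (edgeR adjusted p = 0.164, 0.191 and 0.121). Fos and Jund rose 3.46-fold and 2.27-fold. The calls fell to 5 of the 26 without 0 h replicate 2, where 235 of all 14950 genes tested were called higher. They fell to 7 without 0 h replicate 3 (273 of all 14880) and to 9 without 4 h replicate 1 (496 of all 14936). Without 0 h replicate 1 they came to 21 (821 of all 14899).

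Signalling feedback genes are induced by signalling pathways, and many of them then limit those pathways. Of 28 tested, 14 rose (50%, against 6.17% of all genes) and none fell, with a median log2 fold change of 1.08. The block raised the count to 22, and with it 8.45% of all genes were called higher. Dusp10, a phosphatase of the stress kinases p38 and JNK, was among the most even genes at 6.78, 8.75 and 7.63 CPM at 0 h and 29.6, 29.3 and 25.5 CPM at 4 h (log2 1.86, standard error 0.17, edgeR adjusted p = 0.0027). Dusp5, a phosphatase of ERK, was at 26.2, 20.1 and 11.3 CPM at 0 h and 95.9, 66.6 and 113 CPM at 4 h (log2 2.26, standard error 0.31, edgeR adjusted p = 0.00722). Rgs2, which limits Gq signalling, rose 2.92-fold, and Spred1, an inhibitor of RAS signalling, 2.12-fold. Gadd45g, a stress sensor upstream of p38, was at 47.2, 25.2 and 19.5 CPM at 0 h and 269.7, 125 and 104 CPM at 4 h, and without 0 h replicate 2 or 0 h replicate 3 it was not called (edgeR adjusted p = 0.129 and 0.121). Fewer of the list were called without 0 h replicate 2 (4), 0 h replicate 3 (5) or 4 h replicate 1 (5), and more without 0 h replicate 1 (19).

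Promoter sequences of genes in the strongest groups are shown here because their letters can be set beside the values that follow. They are RefSeq promoters of build GRCm38.p6, and a motif was searched on both strands in the 250 bases before each gene start. Each line gives 60 bases in the direction of the gene, 5′ to 3′, with every match of the motif in capitals. The interferon-stimulated response element (searched as GAAANNGAA) is bound by interferon regulatory factors. Matches of it overlapped each other in Ifit1 and Isg15.
Ifit1 (chr19:34640760-34640819, plus strand): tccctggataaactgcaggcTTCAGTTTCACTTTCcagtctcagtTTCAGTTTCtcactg
Isg15 (chr4:156200857-156200916, minus strand): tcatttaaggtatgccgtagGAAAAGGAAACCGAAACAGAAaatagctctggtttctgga
Cxcl10 (chr5:92349069-92349128, minus strand): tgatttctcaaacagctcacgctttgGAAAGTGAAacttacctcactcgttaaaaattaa

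The NF-kB consensus is bound by dimers such as those of Nfkb1 and Rela, and it is shown for a cytokine and for the chemokine that held both motifs.
Il6 (chr5:30013045-30013104, plus strand): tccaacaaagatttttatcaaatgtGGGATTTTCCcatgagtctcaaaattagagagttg
Cxcl10 (chr5:92348958-92349017, minus strand): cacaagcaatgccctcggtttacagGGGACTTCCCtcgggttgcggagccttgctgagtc

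The interferon element was held by 24 of 48 promoters of the interferon-induced genes (50%), against 7.13% of the 32851 promoters in the table, and 40 of the 52 genes had a promoter there. The NF-kB consensus was held by 42.1% of the promoters of NF-kB pathway genes and 29.2% of those of cytokines and chemokines, against 3.90% of all promoters. Among the promoters of all genes called higher the shares were 9.90% and 9.21%. A match describes the letters of a window and no binding was measured.

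Cytokines and chemokines are secreted proteins that activate neighbouring cells and recruit leukocytes. Of 36 tested, 23 rose (63.9%, against 6.17% of all genes) and 1 fell (2.78%, near 3.91%), with a median log2 fold change of 2.09. Il6 (ENSMUSG00000025746.11, chromosome 5 of GRCm38, 30013114 to 30019981), a cytokine of the acute phase, was at 8.26, 5.11 and 5.02 CPM at 0 h and 164, 70.4 and 64.8 CPM at 4 h (log2 4.02, standard error 0.42, edgeR adjusted p = 0.00306). Csf3, which encodes the granulocyte growth factor G-CSF, was at 0.635, 0.332 and 0.415 CPM at 0 h and 6.63, 17.5 and 23.2 CPM at 4 h (log2 5.07, standard error 0.57, edgeR adjusted p = 0.00403). Both were higher in every 4 h library by more than the whole range at 0 h. Lif, a cytokine of the Il6 family, was at 4.100, 0.995 and 1.09 CPM at 0 h and 29.04, 24.3 and 25.97 CPM at 4 h, and Ccl4, a chemokine for monocytes and T cells, at 13.9, 7.39 and 5.05 CPM at 0 h and 81.6, 81.05 and 43.2 CPM at 4 h. Their log2 fold changes were 3.67 (edgeR adjusted p = 0.00699) and 2.96 (edgeR adjusted p = 0.0071). Ccl9 rose 4.35-fold. Lif had a log2 fold change of 4.66 without 0 h replicate 1. The member that fell was Cxcl12 (chosen after its values were seen), a chemokine made by stromal and endothelial cells that retains cells through Cxcr4. It was at 89.96, 116 and 226 CPM at 0 h and 56.4, 46.4 and 35.6 CPM at 4 h (log2 -1.64, standard error 0.34, edgeR adjusted p = 0.0265), with all 4 h libraries below those of 0 h. Without 0 h replicate 2, 9 members rose, without 0 h replicate 3, 13, and without 4 h replicate 1, 15, and Cxcl12 fell in each of the 6 fits.

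The NF-kB list holds the subunits of this transcription factor, its receptors and the inhibitors that it induces. Of its 34 genes tested, 26 rose (76.5%, against 6.17% of all genes) and none fell, with a median log2 fold change of 1.70. Nfkb1, the subunit p50 and its precursor, was at 53.5, 42.2 and 43.2 CPM at 0 h and 178, 146 and 189 CPM at 4 h (log2 1.89, standard error 0.27, edgeR adjusted p = 0.00775). Cd14, the co-receptor for bacterial lipids and damage signals, was at 18.3, 12.6 and 10.7 CPM at 0 h and 66.1, 69.7 and 48.1 CPM at 4 h (log2 2.14, standard error 0.24, edgeR adjusted p = 0.00403). These levels were even within each group. Inhibitors were among the genes that rose. Tnip1, which binds the ubiquitin-editing enzyme A20, was at 37.3, 25.5 and 24.3 CPM at 0 h and 122, 148 and 268 CPM at 4 h (log2 2.63, standard error 0.42, edgeR adjusted p = 0.0114), and Irak3, a brake on Toll-like receptor signalling, rose 4.26-fold. Tnip1 was highest in 4 h replicate 3. Ptgs2, the inducible cyclooxygenase, was at 28.1, 14.7 and 10.1 CPM at 0 h and 134, 181 and 108 CPM at 4 h (log2 3.0, standard error 0.38, edgeR adjusted p = 0.00539). The list had 7 calls without 0 h replicate 2, 14 without 0 h replicate 3 and 28 without 0 h replicate 1.

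Interferon-induced genes encode antiviral proteins that sense or degrade foreign nucleic acid. All 52 tested had a positive log2 fold change, with a median of 3.13, and in 47 of them the 4 h libraries lay all above those of 0 h (15.9% of all genes). Of the 52, 23 rose (44.2%, against 6.17% of all genes) and none fell, and with the replicate number as a block 42 rose. Cxcl10 (ENSMUSG00000034855.13, chromosome 5 of GRCm38, 92346638 to 92348889), a chemokine that draws activated T cells, was at 12.1, 9.71 and 10.1 CPM at 0 h and 80.2, 76.6 and 1138 CPM at 4 h (log2 5.34, standard error 1.32, edgeR adjusted p = 0.048). Ifit1 (ENSMUSG00000034459.8, chromosome 19 of GRCm38, 34640871 to 34650009), which binds RNA without the cap of the host, was at 6.21, 8.69 and 9.68 CPM at 0 h and 86.96, 58.3 and 665 CPM at 4 h (log2 5.04, standard error 1.15, edgeR adjusted p = 0.0365). Isg15, a ubiquitin-like modifier, was at 6.29, 4.74 and 5.303 CPM at 0 h and 46.2, 29.9 and 211 CPM at 4 h (log2 4.13, standard error 0.94, edgeR adjusted p = 0.0359). In each, the 0 h libraries were close together and 4 h replicate 3 was several times above the other 4 h libraries. Mx1, an antiviral GTPase, was at 0.808, 0.6299 and 1.09 CPM at 0 h and 12.03, 8.69 and 99.2 CPM at 4 h (log2 5.56, standard error 1.37, edgeR adjusted p = 0.0469), and without 0 h replicate 1, 0 h replicate 2, 0 h replicate 3 or 4 h replicate 3 it was not called (edgeR adjusted p = 0.106, 0.184, 0.18 and 0.106). Ifih1, the sensor of long double-stranded RNA also known as MDA5, was at 13.5, 12.6 and 13.1 CPM at 0 h and 59.9, 52.1 and 217 CPM at 4 h (log2 3.07, standard error 0.74, edgeR adjusted p = 0.0445). Rtp4 was at 4.65, 5.305 and 6.900 CPM at 0 h and 24.5, 19.99 and 87.6 CPM at 4 h, and Oasl1, an oligoadenylate synthetase-like gene, at 5.23, 3.45 and 2.43 CPM at 0 h and 41.5, 30.1 and 217 CPM at 4 h. These rose 7.83-fold and 25.9-fold. Rsad2 (viperin) was at 9.24, 13.6 and 26.4 CPM at 0 h and 87.1, 62.6 and 1426 CPM at 4 h, and without 0 h replicate 1, 0 h replicate 2, 0 h replicate 3, 4 h replicate 1 or 4 h replicate 3 it was not called (edgeR adjusted p = 0.186, 0.263, 0.232, 0.102 and 0.298).

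The interferon calls varied with the libraries in the fit. The list's median log2 fold change was 3.10 without 0 h replicate 2, 3.25 without 0 h replicate 3 and 1.35 without 4 h replicate 3. Measured against the 0 h mean, the median of the members was 3.02-fold in 4 h replicate 1, 2.27-fold in replicate 2 and 20.6-fold in replicate 3. Without 4 h replicate 3, 4 of the 52 were called, without 4 h replicate 1, 14, and without 0 h replicate 1, 6. None was called without 0 h replicate 2 or without 0 h replicate 3, and Cxcl10 and Ifit1 then had log2 fold changes of 5.28 to 5.31 and 5.09 to 5.18. Ifit3 and Ifit3b, at 47.5, 23.8 and 634 CPM and 13.9, 6.69 and 169.5 CPM at 4 h, are near-identical copies between which kallisto divided reads, so that their separate levels are uncertain. Replicate 3 of 4 h was also the library with low Y-linked genes. With the summed Y-linked level as a covariate 35 of the 52 were called, and without 8 h replicate 3, whose spread enters the fit, 45. Cxcl10 was not called without 0 h replicate 1, 2 or 3 or 4 h replicate 3 (highest edgeR adjusted p = 0.197). Ifit1, Isg15, Rtp4 and Oasl1 were not called without 0 h replicate 2 or 3 (highest edgeR adjusted p = 0.157, 0.16, 0.161 and 0.147). Ifih1 was not called without 0 h replicate 2 or 3 or 4 h replicate 3 (highest edgeR adjusted p = 0.18). Cxcl10, Ifit1, Isg15, Ifih1, Rtp4, Oasl1, Mx1 and Rsad2 had log2 fold changes of 2.89, 3.15, 2.8, 2.1, 1.99, 3.27, 3.62 and 2.19 without 4 h replicate 3.

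**Figure D2:**
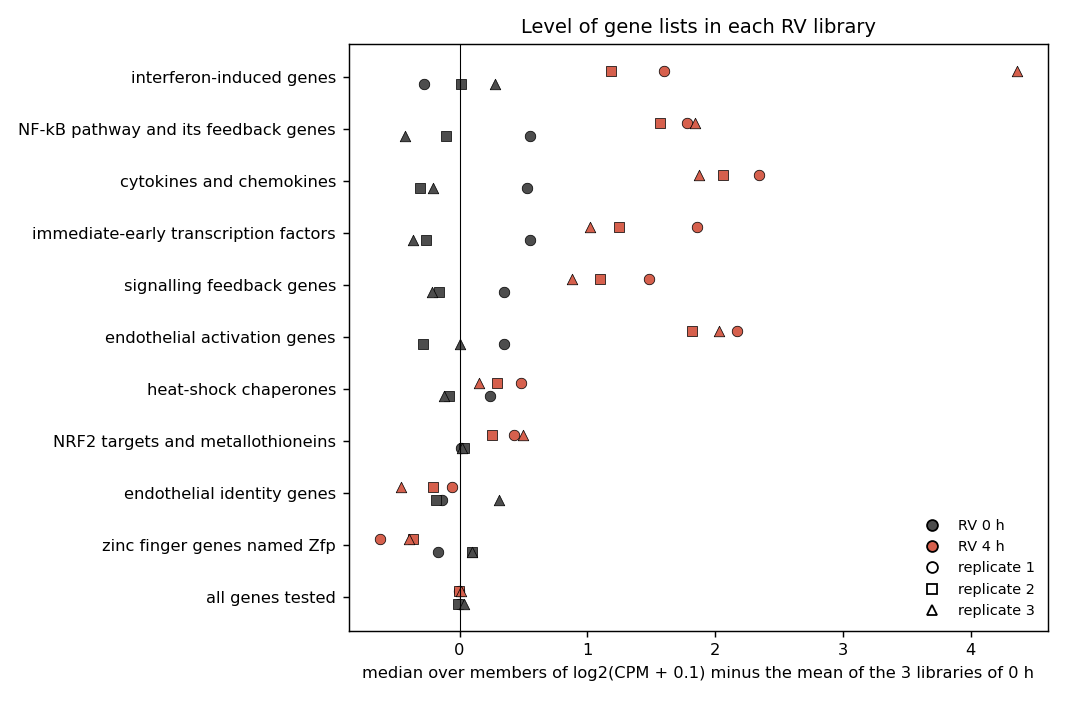
The x axis is the median over the members of a list of log2(CPM + 0.1) minus the mean of the 3 libraries of 0 h, for each of the 6 RV libraries (grey, 0 h; red, 4 h; symbol, replicate). The interferon-induced genes sat at 1.60 and 1.19 in 4 h replicates 1 and 2 and at 4.36 in replicate 3, while the median over all genes tested stayed near 0 in every library.

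Inflammasome genes encode the sensors, adaptors and caspases that process IL-1 family cytokines and open gasdermin pores. Of 18 tested, 4 rose (22.2%, against 6.17% of all genes) and none fell, and 10 rose with the block. Il1rn, the natural antagonist of the IL-1 receptor, was at 1.59, 1.29 and 0.607 CPM at 0 h and 26.6, 22.1 and 29.2 CPM at 4 h (log2 4.47, standard error 0.32, edgeR adjusted p = 0.00172), and its receptor Il1r1 rose 3.23-fold. Casp4, the caspase of the noncanonical pathway, was at 11.8, 7.72 and 7.698 CPM at 0 h and 57.7, 46.4 and 103 CPM at 4 h (log2 2.92, standard error 0.49, edgeR adjusted p = 0.013). Panx1, a membrane channel that releases ATP, rose 5.33-fold from 1.39, 1.09 and 1.92 CPM. Among genes of the proteins that the study measured, Il6, Ccl2, Myd88 and Il10 were called. Ccl2, the monocyte chemokine MCP1, was at 115, 35.1 and 24.7 CPM at 0 h and 458, 352 and 355 CPM at 4 h (log2 2.74, standard error 0.52, edgeR adjusted p = 0.02), with 0 h replicate 1 above the other 0 h libraries. Myd88, the adaptor of Toll-like and IL-1 receptors, was at 15.4, 13.4 and 13.9 CPM at 0 h and 50.9, 28.4 and 84.1 CPM at 4 h (log2 1.94, standard error 0.43, edgeR adjusted p = 0.0349). Il10 was low, at 0.2598, 0.0663 and 0.128 CPM at 0 h and 1.95, 0.769 and 0.243 CPM at 4 h, with overlapping groups, and without 0 h replicate 1, 0 h replicate 2, 0 h replicate 3, 4 h replicate 1 or 4 h replicate 2 it was not called (edgeR adjusted p = 0.106, 0.284, 0.289, 0.343 and 0.142). Il1r1 was not called without 0 h replicate 2 or 3 or 4 h replicate 1 (highest edgeR adjusted p = 0.144). Ccl2 was not called without 0 h replicate 2 (edgeR adjusted p = 0.105). Myd88 was not called without 0 h replicate 2 or 3 (highest edgeR adjusted p = 0.15). Ccl2 and Il10 had log2 fold changes of 3.7 and 3.31 without 0 h replicate 1. Il10 had a log2 fold change of 1.68 without 4 h replicate 1.

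The remaining genes of those proteins were not called in the fit of all 9 libraries without the block. With 1 library left out of it, Tnf was called without 0 h replicate 1 (log2 2.37, edgeR adjusted p = 0.0126), Nlrp3 without 0 h replicate 1 (log2 2.07, edgeR adjusted p = 0.0946) and Il1b without 4 h replicate 3 (log2 1.88, edgeR adjusted p = 0.0442). Nlrp3, the sensor of the canonical inflammasome, was at 21.6, 15.1 and 3.801 CPM at 0 h and 44.2, 53.5 and 20.7 CPM at 4 h (edgeR adjusted p = 0.14, 0.0166 with the block). Tnf was at 83.1, 29.8 and 15.7 CPM at 0 h and 131, 145 and 76.1 CPM at 4 h (edgeR adjusted p = 0.135, 0.0377 with the block), and Il1b at 26.8, 14.3 and 14.6 CPM at 0 h and 71.5, 65.1 and 14.3 CPM at 4 h (edgeR adjusted p = 0.174, 0.0679 with the block). Nlrp3, Tnf and Il1b overlapped between the groups, with 0 h replicate 1 high in Tnf and 4 h replicate 3 low in Il1b. Casp1 was at 1.67, 1.69 and 2.68 CPM at 0 h and 2.68, 3.19 and 12.9 CPM at 4 h (edgeR adjusted p = 0.282, 0.0632 with the block). Gsdmd, the pore protein, was at 8.83, 7.09 and 9.61 CPM at 0 h and 15.1, 14.1 and 26.7 CPM at 4 h (edgeR adjusted p = 0.154, 0.0324 with the block), where the groups did not overlap. Pycard, the adaptor ASC, was at 5.197, 5.14 and 5.88 CPM at 0 h and 4.87, 5.46 and 6.901 CPM at 4 h (log2 0.09, edgeR adjusted p = 0.895).

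Activated endothelium displays adhesion molecules for leukocytes and shifts toward clotting. Of 23 such genes tested, 14 rose (60.9%, against 6.17% of all genes) and none fell, with a median log2 fold change of 2.02. Selp, the gene of P-selectin, which starts the rolling of leukocytes, was at 16.3, 6.13 and 5.398 CPM at 0 h and 207, 282 and 428 CPM at 4 h (log2 5.04, standard error 0.60, edgeR adjusted p = 0.00443). Icam1, the ligand of leukocyte integrins, reached one of the highest levels of any called gene, at 739, 171 and 91.5 CPM at 0 h and 1662, 1599 and 1922 CPM at 4 h (log2 2.37, standard error 0.67, edgeR adjusted p = 0.0723). In Icam1 0 h replicate 1 stood far above the other 0 h libraries, and without 0 h replicate 2, 0 h replicate 3, 4 h replicate 1, 4 h replicate 2 or 4 h replicate 3 it was not called (edgeR adjusted p = 0.239, 0.184, 0.151, 0.134 and 0.145). Ch25h, which makes 25-hydroxycholesterol, was at 2.25, 1.89 and 2.08 CPM at 0 h and 35.6, 17.7 and 21.4 CPM at 4 h (log2 3.58, standard error 0.33, edgeR adjusted p = 0.0027), and Adamts4, a protease of proteoglycans, at 22.7, 7.16 and 6.29 CPM at 0 h and 424, 257 and 149 CPM at 4 h (log2 4.52, standard error 0.63, edgeR adjusted p = 0.00747). Thbs1 (thrombospondin 1) rose 7.54-fold. Selp, Icam1, Adamts4 and Thbs1 had log2 fold changes of 5.73, 3.72, 5.36 and 3.69 without 0 h replicate 1. Without 0 h replicate 2, 6 of the 23 were called, and without 0 h replicate 3, 8. Summed neutrophil markers were 3.02 to 4.79 CPM at 0 h and 6.89 to 11.96 CPM at 4 h, with Csf3r the 1 member of the 3 tested that was called higher, 7 of the 9 below 1 CPM and Ly6g and Ngp at 0 in all 6 libraries. Summed lymphocyte markers were 0.837 to 1.09 CPM and 1.42 to 4.30 CPM, with Cd3d the 1 of 2 tested that was called higher (exact two-sided permutation test, p = 0.1 for each sum), and the macrophage sums of 172 to 273 CPM and 208 to 243 CPM overlapped. Over all genes tested 6.17% were called higher. The part of these cell types in the results was not tested.

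Of the genes that define resting endothelium, 7 of 39 fell (17.9%, against 3.91% of all genes) and 1 rose (3 with the block), with a median log2 fold change of -0.25. Clec14a, a lectin of endothelial junctions, was at 7.02, 13.3 and 22.8 CPM at 0 h and 2.99, 2.42 and 1.28 CPM at 4 h (log2 -2.68, standard error 0.47, edgeR adjusted p = 0.016). Meox2, an endothelial homeobox gene, was at 17.1, 25.1 and 22.3 CPM at 0 h and 9.06, 8.92 and 6.59 CPM at 4 h (log2 -1.39, standard error 0.22, edgeR adjusted p = 0.011). Hey1, a Notch target in arteries, was at 9.61, 9.08 and 12.01 CPM at 0 h and 3.69, 2.54 and 1.87 CPM at 4 h (log2 -1.91, standard error 0.36, edgeR adjusted p = 0.0199). The levels at 4 h were low in all 3 libraries, and the 0 h levels of Clec14a were spread over more than 3-fold. Egfl7, a secreted factor of vessel formation, was at 62.1, 77.98 and 116 CPM at 0 h and 32.7, 23.7 and 8.95 CPM at 4 h (log2 -1.97, standard error 0.45, edgeR adjusted p = 0.0365), and without 0 h replicate 2 or 0 h replicate 3 it was not called (edgeR adjusted p = 0.12 and 0.155). Gja5, the gap junction protein of arterial endothelium and conduction fibres, fell 1.96-fold. The member that rose was Rasip1 (chosen after its values were seen, log2 1.39, standard error 0.34, edgeR adjusted p = 0.0456). The 8 general endothelial markers summed to 856 to 1395 CPM at 0 h and 598 to 1208 CPM at 4 h, and none was called. In bulk RNA, fewer cells of a type and less RNA per cell cannot be told apart. The list had 4 lower genes without 0 h replicate 2 and 3 without 0 h replicate 3. Against the 0 h mean, its median log2 levels were -0.14, -0.18 and 0.31 at 0 h and -0.058, -0.20 and -0.46 at 4 h. Replicates 1 and 2 of 4 h thus lay near those of 0 h, and 0 h replicate 3 was the highest 0 h library for 32 of the 39. The median log2 fold change was -0.063 without 0 h replicate 3 and -0.13 without 4 h replicate 3. Gja5 was not called without 0 h replicate 3 (edgeR adjusted p = 0.133).

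Among protein-coding genes of at least 5 CPM in a group whose groups did not overlap, Aplnr, the endothelial apelin receptor, was at 2.11, 6.17 and 19.9 CPM at 0 h and 0.482, 1.69 and 1.21 CPM at 4 h (log2 -3.08, standard error 0.95, edgeR adjusted p = 0.0932), so that 0 h replicate 1 was near the 4 h level, and without 0 h replicate 2, 0 h replicate 3, 4 h replicate 1, 4 h replicate 2 or 4 h replicate 3 it was not called (edgeR adjusted p = 0.185, 0.366, 0.257, 0.159 and 0.196). Aplnr had a log2 fold change of -1.89 without 0 h replicate 3. Myct1, a further endothelial gene, was at 6.99, 16.01 and 20.9 CPM at 0 h and 2.63, 3.499 and 2.01 CPM at 4 h (log2 -2.43, standard error 0.40, edgeR adjusted p = 0.0125). Flt3l, a growth factor for dendritic cells, was at 4.04, 8.98 and 11.5 CPM at 0 h and 1.59, 1.69 and 1.14 CPM at 4 h (log2 -2.46, standard error 0.40, edgeR adjusted p = 0.0116). Each had all 4 h libraries below those of 0 h, which the choice of these genes required. Depp1, a target of FOXO factors, was at 55.9, 30.9 and 25.8 CPM at 0 h and 7.57, 9.27 and 7.77 CPM at 4 h (log2 -2.2, standard error 0.31, edgeR adjusted p = 0.00775). The others on this list fell 4.64-fold (Nynrin), 4.36-fold (Gstt2), 3.92-fold (Fam198b) and 3.91-fold (Kctd12b). Of 23 Notch and BMP target genes, 2 rose (8.70%, near the 6.17% of all genes) and 3 fell (13.0%, against 3.91%), with a median log2 fold change of -0.43. Heyl was at 21.9, 25.99 and 25.1 CPM at 0 h and 9.57, 13.1 and 6.62 CPM at 4 h (log2 -1.32, standard error 0.23, edgeR adjusted p = 0.0144), and the receptor Notch3, which is used by mural cells, at 57.4, 60.1 and 62.03 CPM at 0 h and 36.8, 33.7 and 32.2 CPM at 4 h (log2 -0.8, standard error 0.12, edgeR adjusted p = 0.00927). Notch3 had a small spread within each group. Smad7, an inhibitor of TGF-beta signalling, and the ligand Bmp2 rose 3.47-fold and 3.72-fold. Of the 8 pericyte and smooth muscle markers 3 were called lower (Pdgfrb, Kcnj8 and Cspg4), against 3.91% of all genes. The sums of the 8 markers, 1018 to 1169 CPM and 981 to 1096 CPM, overlapped. Endocardial markers summed to 112 to 133 CPM at 0 h and 76.1 to 107.8 CPM at 4 h (exact two-sided permutation test, p = 0.1). Of the 6, 1 was called lower (Npr3), against the same 3.91%. The part of mural and endocardial cells in these decreases was not tested.

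The circadian clock runs as a loop in which Bmal1 (Arntl) and its partners Clock or Npas2 activate the Per and Cry repressors and output genes such as Dbp. Of 22 clock genes tested, 4 rose (18.2%, against 6.17% of all genes) and 5 fell (22.7%, against 3.91%). Per3 (ENSMUSG00000028957.12, chromosome 4 of GRCm38, 151003652 to 151044665) was at 25.7, 58.3 and 50.2 CPM at 0 h and 6.72, 7.19 and 11.9 CPM at 4 h (log2 -2.38, standard error 0.34, edgeR adjusted p = 0.00775), and Dbp at 75.4, 133 and 112 CPM at 0 h and 13.3, 14.5 and 38.6 CPM at 4 h (log2 -2.27, standard error 0.47, edgeR adjusted p = 0.0272). Per2 was at 30.5, 44.03 and 37.8 CPM at 0 h and 19.5, 12.6 and 16.9 CPM at 4 h (log2 -1.2, standard error 0.23, edgeR adjusted p = 0.0214). The other genes that fell were Tef and Hlf (chosen after their values were seen), which with Dbp bind D-boxes, and their log2 fold changes were -1.17 and -1.12. In the opposite direction, Arntl was at 5.601, 1.72 and 2.08 CPM at 0 h and 19.8, 18.2 and 11.6 CPM at 4 h (log2 2.39, standard error 0.41, edgeR adjusted p = 0.0142), Npas2 at 1.41, 1.33 and 1.76 CPM at 0 h and 4.65, 5.998 and 4.96 CPM at 4 h and Nfil3, the repressor at D-boxes, at 13.7, 8.75 and 8.98 CPM at 0 h and 100.2, 55.5 and 54.5 CPM at 4 h. Npas2 and Nfil3 rose 3.46-fold and 6.68-fold, and Cry1 (chosen after its values were seen) 1.84-fold. The Per3 promoter held the D-box (TTACGTAA or TTATGTAA) at a pair of places. It was the 1 of 26 promoters of clock genes with a D-box (3.85%, against 0.931% of all promoters). Among promoters of all genes called lower, 3 of 544 held a D-box (0.551%, against 0.659% for genes tested). The stretch with the copy nearer the start is shown, and a part of the D-box in these decreases was not tested.
Per3 (chr4:151044790-151044849, minus strand): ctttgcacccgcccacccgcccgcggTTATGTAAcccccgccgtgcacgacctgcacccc

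The decreases came to 1 without 0 h replicate 2 and 3 without 0 h replicate 3, where the increases numbered 3 in each. A heart stored for 4 h was frozen later after excision than one of 0 h, and the hour of the day is not given in the sources used here, so that storage and elapsed time cannot be told apart. Dbp was not called without 0 h replicate 2 or 3 (highest edgeR adjusted p = 0.117). Per2 was not called without 0 h replicate 2 (edgeR adjusted p = 0.107). Dbp had a log2 fold change of -2.94 without 4 h replicate 3. Arntl had a log2 fold change of 3.12 without 0 h replicate 1.

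**Figure D3:**
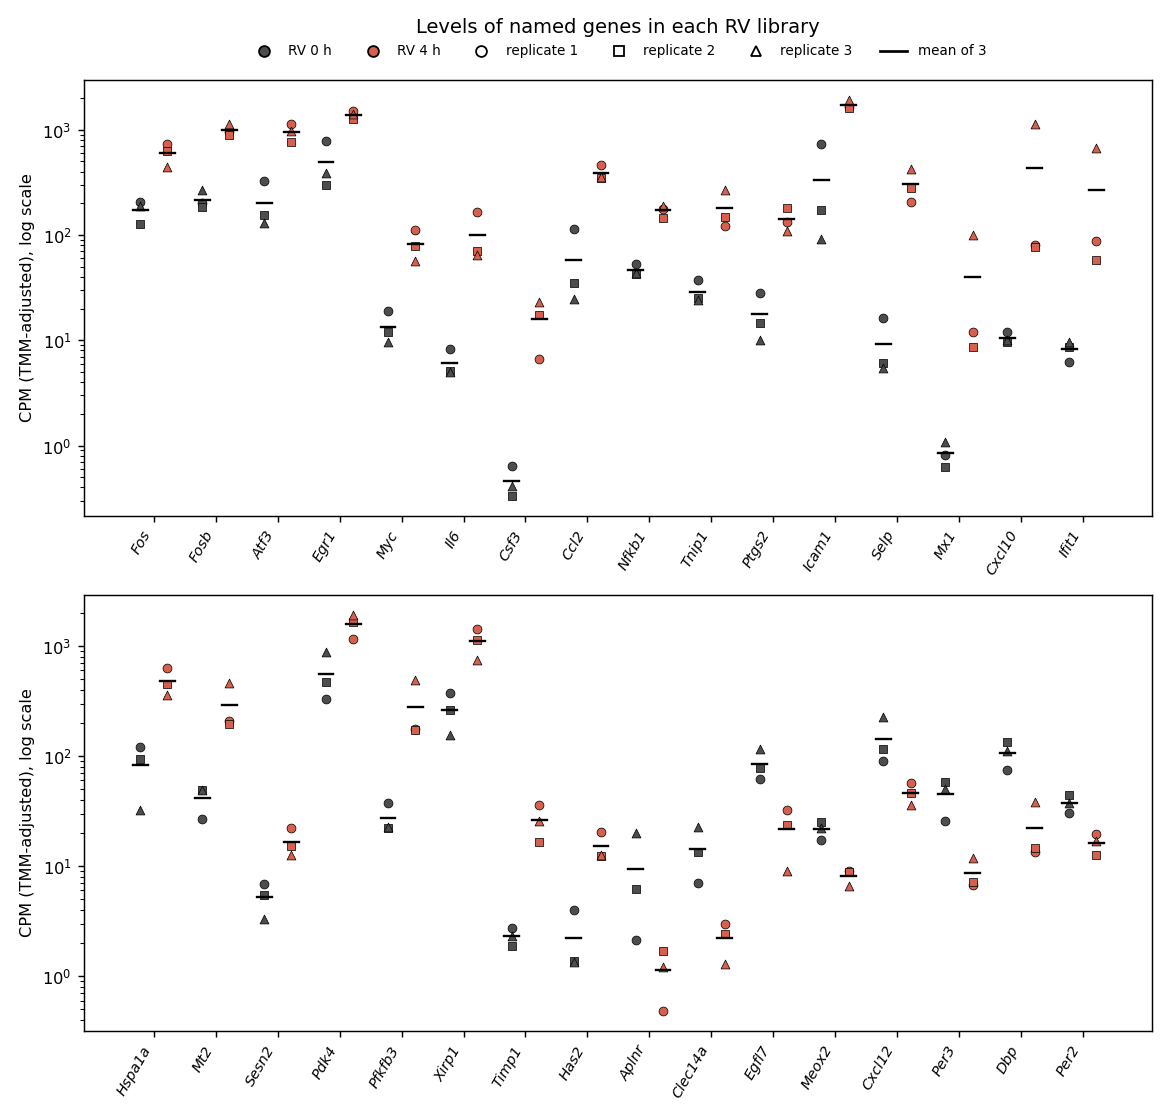
Each symbol is the level of a gene in CPM (log scale) in an RV library of 0 h (grey) or 4 h (red), with the replicate given by the symbol and the mean of 3 by the bar. Mx1, Cxcl10 and Ifit1 have 4 h replicate 3 far above the other libraries. In these genes, as in Il6, Nfkb1, Per3 and Meox2, the 2 groups do not overlap.

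Stress programs of the cytosol, the endoplasmic reticulum and the antioxidant system moved in part. Of 30 heat-shock chaperones, 7 rose (23.3%, against 6.17% of all genes) and none fell, with a median log2 fold change of 0.31. Hspa1a, the inducible Hsp70, was at 121, 94.6 and 32.4 CPM at 0 h and 633, 452 and 361 CPM at 4 h (log2 2.54, standard error 0.60, edgeR adjusted p = 0.0407), and it and its near-identical copy Hspa1b share reads. Dnajb1, the Hsp40 that works with it, was at 49.8, 45.5 and 29.6 CPM at 0 h and 224, 135 and 94.98 CPM at 4 h (log2 1.86, standard error 0.33, edgeR adjusted p = 0.0167), and Hspb1, a small heat-shock protein, rose 2.45-fold. In Hspa1a the spread at 0 h was wide, with replicate 3 lowest, and without 0 h replicate 2, 0 h replicate 3 or 4 h replicate 1 it was not called (edgeR adjusted p = 0.149, 0.137 and 0.113). Hsp90aa1 and Dnajb4 rose 2.72-fold and 2.21-fold. The heat-shock element (GAANNTTC) was held by 28.1% of chaperone promoters and 6.69% of all promoters, and its place in the most strongly induced chaperone is shown.
Hspa1a (chr17:34972227-34972286, minus strand): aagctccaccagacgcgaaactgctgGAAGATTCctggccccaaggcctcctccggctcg

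Of 30 genes of the unfolded protein and integrated stress response, 6 rose (20%, against 6.17% of all genes) and none fell, with a median of 0.40. Atf4, the transcription factor of amino acid stress, was at 144, 94.9 and 84.9 CPM at 0 h and 371, 227 and 231 CPM at 4 h (log2 1.36, standard error 0.30, edgeR adjusted p = 0.0351), and its targets Asns (asparagine synthetase) and Sesn2 were at 4.76, 2.09 and 1.597 CPM at 0 h and 24.5, 12.9 and 11.1 CPM at 4 h and at 6.87, 5.44 and 3.29 CPM at 0 h and 21.96, 15.3 and 12.6 CPM at 4 h. They rose 5.72-fold and 3.197-fold, with Edem1 and Chac1 rising 1.85-fold and 1.78-fold. Of the chaperones 1 was called without 0 h replicate 2 and 2 without 0 h replicate 3 or 4 h replicate 1, and of the unfolded protein list none without 0 h replicate 2 or 3 and 2 without 4 h replicate 1. Asns had a log2 fold change of 3.14 without 0 h replicate 1. Atf4 was not called without 0 h replicate 2 or 3 or 4 h replicate 1 (highest edgeR adjusted p = 0.159). Asns and Sesn2 were not called without 0 h replicate 2 or 3 (highest edgeR adjusted p = 0.121 and 0.125). Edem1 and Hsp90aa1 were not called without 0 h replicate 2 or 3 or 4 h replicate 1 or 2 (highest edgeR adjusted p = 0.2 and 0.22). Chac1 was not called without any 1 library (highest edgeR adjusted p = 0.207). Dnajb4 was not called without 0 h replicate 2 or 3 or 4 h replicate 1 or 3 (highest edgeR adjusted p = 0.185). Hspb1 was not called without 0 h replicate 2 (edgeR adjusted p = 0.102).

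Of 23 NRF2 targets and metallothioneins, 9 rose (39.1%, against 6.17% of all genes) and none fell, with a median of 0.31. Gclc, the rate-limiting enzyme of glutathione synthesis, was at 16.9, 16.6 and 14.8 CPM at 0 h and 63.3, 57.4 and 69.9 CPM at 4 h (log2 1.98, standard error 0.21, edgeR adjusted p = 0.00306), with little spread in either group. Mt2, a metal-binding scavenger, was at 27.02, 49.4 and 49.3 CPM at 0 h and 208, 196 and 459.8 CPM at 4 h (log2 2.78, standard error 0.48, edgeR adjusted p = 0.0144). Mt2 was lowest in 0 h replicate 1 and highest in 4 h replicate 3. Hmox1, which degrades heme, was at 16.5, 18.6 and 14.2 CPM at 0 h and 137, 81.3 and 48.8 CPM at 4 h (log2 2.44, standard error 0.46, edgeR adjusted p = 0.02), and it was highest in 4 h replicate 1, the library with the most red blood cell markers. Whether these go together was not tested. Txnrd1 and Srxn1 rose 3.12-fold and 3.15-fold. Of 30 hypoxia and glycolysis genes, 3 rose (10.0%, near the 6.17% of all genes), and the list's median was 0.04. Pfkfb3, which drives glycolysis by making fructose 2,6-bisphosphate, was at 37.3, 22.1 and 22.7 CPM at 0 h and 175, 173 and 492 CPM at 4 h (log2 3.35, standard error 0.55, edgeR adjusted p = 0.0124). Adm, the vasodilator adrenomedullin, was at 11.2, 4.74 and 7.22 CPM at 0 h and 29.5, 22.2 and 34.3 CPM at 4 h (log2 1.89, standard error 0.29, edgeR adjusted p = 0.00998). Hif1a was at 73.7, 68.1 and 57.2 CPM at 0 h and 75.4, 80.9 and 112 CPM at 4 h (edgeR adjusted p = 0.322) and the glucose transporter gene Slc2a1 at 18.7, 18.3 and 12.6 CPM at 0 h and 38.2, 23.7 and 19.2 CPM at 4 h (edgeR adjusted p = 0.233). The antioxidant list had 4 calls without 0 h replicate 2 and 3 without 0 h replicate 3. Hmox1 was not called without 0 h replicate 3 (edgeR adjusted p = 0.111). Srxn1 was not called without 0 h replicate 2 or 3 (highest edgeR adjusted p = 0.141). Pfkfb3 had a log2 fold change of 2.67 without 4 h replicate 3.

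In the lists of the contractile and energy apparatus at most 3.57% of members were called higher and 2.86% lower, against 6.17% and 3.91% of all genes. For lists of this size these shares are near those of all genes, and no list was tested. Of 28 sarcomere genes 1 rose, Xirp1, a repair protein of the intercalated disc, at 374, 262 and 155 CPM at 0 h and 1412, 1142 and 749.7 CPM at 4 h (log2 2.06, standard error 0.40, edgeR adjusted p = 0.0224). The list's median log2 fold change was 0.10. Of 35 calcium handling and ion channel genes 1 fell, Kcnj8, a potassium channel subunit of mural cells and myocytes, at 31.8, 35.2 and 41.5 CPM at 0 h and 18.4, 18.8 and 6.24 CPM at 4 h (log2 -1.32, standard error 0.39, edgeR adjusted p = 0.0846), with 4 h replicate 3 lowest. No gene of the 13 encoded by mitochondrial DNA, of 40 nuclear respiratory chain genes, or of 24 genes of mitochondrial transcription, fusion and fission was called, and their medians were 0.12, 0.09 and 0.01. Of 34 fatty acid oxidation genes 1 rose, Pdk4, the kinase that shuts pyruvate out of the mitochondrion, at 332, 469.8 and 874 CPM at 0 h and 1153, 1668 and 1916 CPM at 4 h (log2 1.5, standard error 0.43, edgeR adjusted p = 0.075). Its 0 h levels were spread over more than 2-fold. Rrad, a small GTPase that damps calcium channels, was at 472, 402 and 452 CPM at 0 h and 1106, 735 and 1139 CPM at 4 h (log2 1.17, standard error 0.24, edgeR adjusted p = 0.0249). Flnc (filamin C) and Ubb (ubiquitin B), further highly expressed genes, rose 2.57-fold and 1.57-fold. The cold-inducible genes Cirbp and Rbm3 were at 43.05, 34.8 and 46.3 CPM at 0 h and 33.5, 30.3 and 30.6 CPM at 4 h (edgeR adjusted p = 0.136) and at 54.02, 42.8 and 60.98 CPM at 0 h and 61.3, 53.3 and 62.9 CPM at 4 h (edgeR adjusted p = 0.752). Xirp1 was not called without 0 h replicate 2 (edgeR adjusted p = 0.117). Kcnj8 and Ubb were not called without any 1 library (highest edgeR adjusted p = 0.269 and 0.231). Pdk4 was not called without 0 h replicate 1 or 2 or 4 h replicate 1, 2 or 3 (highest edgeR adjusted p = 0.252). Rrad was not called without 0 h replicate 2 or 3 (highest edgeR adjusted p = 0.129). Flnc was not called without 0 h replicate 2 or 3 or 4 h replicate 1 or 2 (highest edgeR adjusted p = 0.26).

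Of 34 matrix and fibroblast genes tested, 10 rose (29.4%, against 6.17% of all genes) and none fell, with a median log2 fold change of 0.26. Timp1, the inhibitor of metalloproteinases, was at 2.71, 1.89 and 2.33 CPM at 0 h and 35.6, 16.7 and 25.7 CPM at 4 h (log2 3.49, standard error 0.48, edgeR adjusted p = 0.00722). Has1 and Has2, which make hyaluronan, were at 3.06, 1.79 and 1.18 CPM at 0 h and 26.1, 14.4 and 11.9 CPM at 4 h and at 3.96, 1.36 and 1.34 CPM at 0 h and 20.4, 12.3 and 12.5 CPM at 4 h. They rose 8.66-fold (edgeR adjusted p = 0.00775) and 6.76-fold (edgeR adjusted p = 0.0133), and Tnc and Fbn1 6.06-fold and 1.91-fold. The others that rose were the enzymes Lox, Mmp3 and Mmp14, the basement membrane collagen Col4a1 and the growth factor Tgfb1. The fibrillar collagen genes Col1a1, Col1a2 and Col3a1, chosen after their values were seen, were not called (edgeR adjusted p = 0.684, 0.96 and 0.736). Mesothelial markers summed to 47.2, 14.7 and 13.1 CPM at 0 h and 59.5, 53.3 and 49.3 CPM at 4 h (exact two-sided permutation test, p = 0.1), with no member called, and their part was not tested. Most of this sum was Wt1, at 29.4, 9.85 and 7.35 CPM at 0 h and 52.9, 43.9 and 31.4 CPM at 4 h. Msln, Upk3b and Upk1b had log2 fold changes of 0.52, 0.46 and 0.30, and Krt19, Krt8 and Lrrn4 of -0.81, -0.31 and -0.78. The fibroblast sums of 2386 to 2528 CPM and 2124 to 2620 CPM overlapped. Without 0 h replicate 2 or 3, 4 of the matrix genes were called. Fbn1 and Tnc were not called without 0 h replicate 2 or 3 (highest edgeR adjusted p = 0.129 and 0.126). Has2 had a log2 fold change of 3.48 without 0 h replicate 1.

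Of 26 Hippo, SRF and mechanical response genes 4 rose (15.4%, against 6.17% of all genes) and 1 fell (3.85%, near 3.91%). Ccn2, a matricellular target of YAP, was at 139, 107 and 90.4 CPM at 0 h and 516, 385 and 342 CPM at 4 h (log2 1.88, standard error 0.26, edgeR adjusted p = 0.00726), and Ccn1 rose 2.77-fold. Nppb, the natriuretic peptide of stretched myocardium, was at 54.6, 25.99 and 25.7 CPM at 0 h and 201, 113 and 51.9 CPM at 4 h (log2 1.78, standard error 0.53, edgeR adjusted p = 0.0807), where 4 h replicate 3 lay within the 0 h range. The member that fell, Ajuba, a scaffold that restrains the Hippo kinases, was at 5.803, 6.100 and 8.21 CPM at 0 h and 2.43, 2.88 and 1.39 CPM at 4 h (log2 -1.58, standard error 0.29, edgeR adjusted p = 0.018). Of 19 enzymes of eicosanoid, nucleotide and nitric oxide pathways 7 rose (36.8%, against 6.17% of all genes) and none fell. Acod1, which makes itaconate in activated macrophages, was at 1.82, 1.06 and 0.671 CPM at 0 h and 14.7, 21.9 and 85.8 CPM at 4 h (log2 5.09, standard error 0.90, edgeR adjusted p = 0.0165). Adora2b, an adenosine receptor, rose 7.55-fold, Odc1, the first enzyme of polyamine synthesis, 3.02-fold and Sphk1, which makes sphingosine 1-phosphate, 6.23-fold. Without 0 h replicate 2 or 3, 3 of these enzymes and 2 of the Hippo list were called higher, and with the block 7 of the Hippo list. Ccn1 and Odc1 were not called without 0 h replicate 2 or 3 (highest edgeR adjusted p = 0.132 and 0.117). Nppb was not called without 0 h replicate 2 or 3 or 4 h replicate 1 or 2 (highest edgeR adjusted p = 0.286). Sphk1 was not called without 0 h replicate 2 or 3 or 4 h replicate 1 (highest edgeR adjusted p = 0.172). Acod1 had a log2 fold change of 3.94 without 4 h replicate 3. Sphk1 had a log2 fold change of 1.85 without 4 h replicate 1.

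Of 30 cell death and BCL2 family genes 8 rose (26.7%, against 6.17% of all genes) and 2 fell (6.67%, against 3.91%). Tnfrsf12a, the TWEAK receptor, was at 34.2, 16.4 and 16.5 CPM at 0 h and 155, 98.6 and 86.7 CPM at 4 h (log2 2.34, standard error 0.36, edgeR adjusted p = 0.00992). Fas, Ripk1 and Bcl2l11, a receptor, a kinase and a BH3-only protein of cell death, rose 3.49-fold, 2.65-fold and 2.72-fold, and Pmaip1, which encodes NOXA, 2.11-fold. The members that fell were the BH3-only genes Bik and Hrk (chosen after their values were seen), with log2 fold changes of -1.08 and -1.56. The list had 1 higher gene without 0 h replicate 2, 2 without 0 h replicate 3 and 4 without 4 h replicate 1, and none lower in these fits. Fas was not called without 0 h replicate 2 (edgeR adjusted p = 0.129). Ripk1 and Bcl2l11 were not called without 0 h replicate 2 or 3 (highest edgeR adjusted p = 0.148 and 0.158). Pmaip1 was not called without 0 h replicate 2 or 3 or 4 h replicate 1 (highest edgeR adjusted p = 0.129). Of 26 genes of AU-rich element binding and RNA decay 6 rose (23.1%, against 6.17% of all genes) and none fell. Rc3h1, which encodes Roquin and destabilises cytokine messages, was at 25.4, 30.5 and 31.9 CPM at 0 h and 62.7, 83.3 and 80.9 CPM at 4 h (log2 1.37, standard error 0.19, edgeR adjusted p = 0.00737). Zc3h12c, Pnrc1, Tob1 and Btg2 rose 2.01-fold, 1.94-fold, 2.08-fold and 2.34-fold, and Zc3h12a, the RNase Regnase-1, 3.37-fold. Without 0 h replicate 2 or 3, 2 of this list were called, and without 4 h replicate 1, 3. Pnrc1 was not called without 0 h replicate 2 or 3 (highest edgeR adjusted p = 0.131). Tob1 was not called without 0 h replicate 2 or 3 or 4 h replicate 1 or 2 (highest edgeR adjusted p = 0.184). Btg2 was not called without 0 h replicate 2 or 3 or 4 h replicate 1 (highest edgeR adjusted p = 0.209).

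Zinc finger genes named Zfp, most of which encode DNA-binding repressors of the KRAB family, were a list in which more genes fell than rose. Of 358 tested, 71 fell (19.8%, against 3.91% of all genes) and 10 rose (2.79%, against 6.17%), with a median log2 fold change of -0.50. In 167 the 4 h libraries lay all below those of 0 h (15.9% of all genes). Many share sequence with other members, so that reads may be divided between them, and the symbol pattern also takes in the RNA-binding Zfp36 family. With the block 16 rose, and the count of lower genes was 99 with the block, 5 without 0 h replicate 2, 7 without 0 h replicate 3, 9 without 4 h replicate 1, 24 without 4 h replicate 2 and 37 without 4 h replicate 3. Over all genes the lower calls in these fits numbered 790, 86, 79, 157, 281 and 270. Among the largest increases in no list were Ptx3, a pattern recognition protein that binds complement, at 38.9, 7.29 and 7.19 CPM at 0 h and 561, 283 and 451 CPM at 4 h (log2 4.6, standard error 0.69, edgeR adjusted p = 0.00927), and Fgf23, the phosphate hormone, at 0.318, 0.0995 and 0.0319 CPM at 0 h and 4.56, 7.65 and 5.62 CPM at 4 h (log2 5.23, standard error 0.59, edgeR adjusted p = 0.00403). The 0 h levels of Fgf23 stand for few counts, so that its fold is uncertain. Ptx3 and Fgf23 had log2 fold changes of 5.9 and 6.42 without 0 h replicate 1.

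**Figure D4:**
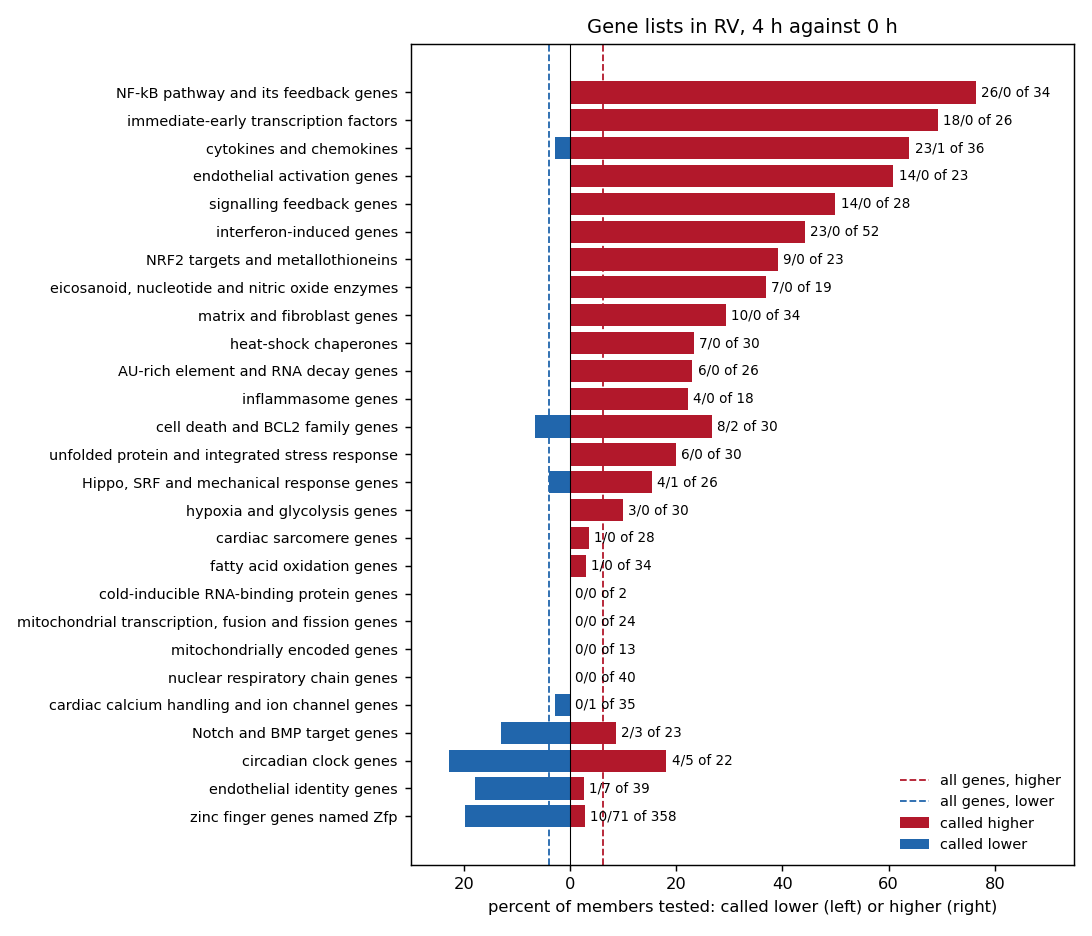
Bars give the percentage of tested members of each gene list called higher (red, right) or lower (blue, left) in RV at 4 h against 0 h, with the numbers higher/lower of tested beside them. Dashed lines mark 6.17% and 3.91%, the shares over all genes tested; the lists were chosen with earlier results of these data known, and no list was tested.

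The study also stored hearts for 8 h, and the 3 RV libraries of that time show where the 4 h state lay. Between 8 h and 4 h, edgeR called 0 of 14622 genes (0.0%), with 961 at an unadjusted p under 0.05 and 49 called by DESeq2, and the comparison shares the 4 h libraries with the one above. Has1 was at 65.1, 43.3 and 91.4 CPM at 8 h (log2 1.93 against 4 h, standard error 0.41, edgeR adjusted p = 0.599, as for each gene named here), and Zfp46, Tsku, Anxa1 and Sowahc were the other genes with the smallest p among those higher at 8 h, with log2 values of 1.41, 1.28, 1.22 and 0.99. In the other direction stood Cenpa, Slc25a36, Gcat, Rfx2 and Kif11, with -1.56, -0.98, -4.59, -1.36 and -1.28. Rfx2, a factor of cilium genes, had been at 10.9, 10.1 and 5.17 CPM at 0 h and 43.2, 49.3 and 51.2 CPM at 4 h and was at 21.4, 13.9 and 20.4 CPM at 8 h. Cxcl10 was at 185, 439.6 and 2276 CPM and Mx1 at 17.6, 24.7 and 238 CPM at 8 h, with replicate 3 again the highest. The list medians of the difference between 8 h and 4 h were 1.24 for interferon-induced genes, -0.42 for sarcomere genes and -0.52 for fatty acid oxidation genes, beside 0.01 for all genes.

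Whether the RV changed otherwise than the LV of the same storage times was tested as the difference of the 4 h against 0 h changes over all 18 libraries. Without a block 0 of 15093 genes were called by edgeR (0.0%) and 0 by DESeq2, with 158 and 164 at an unadjusted p under 0.05. With the same-numbered LV and RV libraries of a time as a block, 40 genes had a more upward change in RV (0.265%) and 6 a more downward one (0.0398%). Of the 40, 29 were among the genes called higher in RV, and of the 6, 4 among those called lower in RV. Leaving out a same-numbered LV and RV pair gave 0 to 28 such genes, with 28 without 4 h replicate 3, 14 without 0 h replicate 3 or 4 h replicate 1, 6 without 4 h replicate 2, 3 without 0 h replicate 1 and 0 without 0 h replicate 2. The median difference over the list was 0.24 for interferon-induced genes and 0.58 for immediate-early genes, beside -0.01 for all genes.

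**Figure D5:**
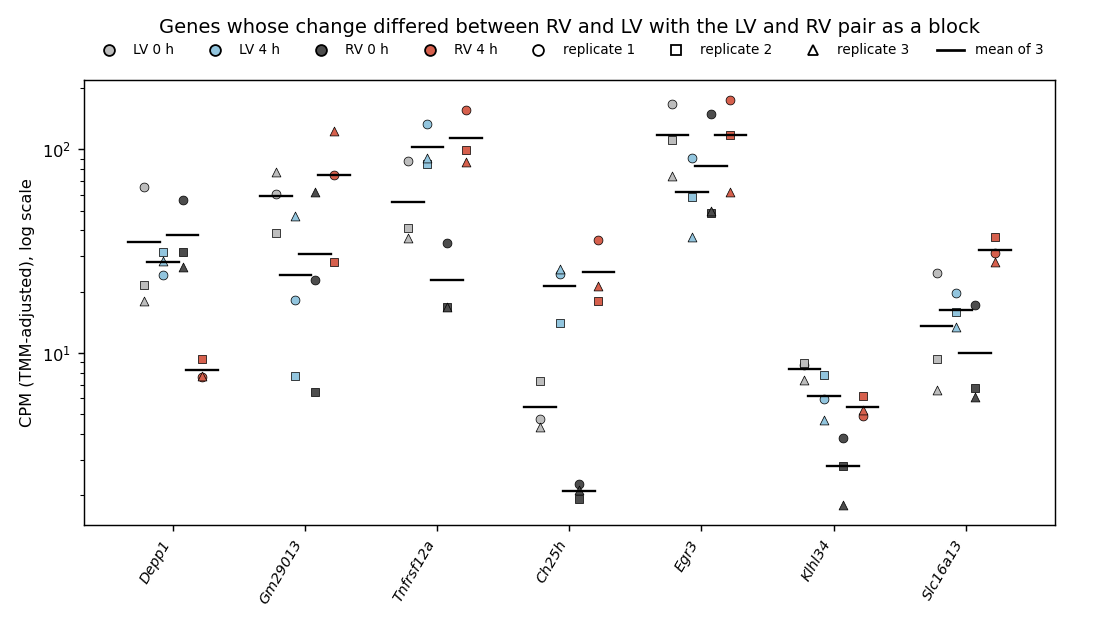
Levels in CPM (log scale, normalized over all 18 libraries) of the 7 genes named for the largest differences between RV and LV in the change from 0 to 4 h, with the same-numbered pair as a block, for each library, with the mean of 3 as a bar. Depp1 is lower in the 4 h RV libraries than in the other groups, and Ch25h and Tnfrsf12a rise from a lower 0 h level in RV than in LV.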

How the data were processed

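RNA was sequenced from LV and RV of mouse hearts at 0, 4 and 8 h of storage, with 3 libraries per ventricle and time and 18 in all. Per the labels and the study's methods, directional libraries were made, and kallisto gave the deposited estimated counts of transcripts on GRCm38. TPM values in the deposited files were used for no test. Estimated counts were summed to genes with GENCODE M21 and rounded to whole numbers. Of 111462 transcripts, 1259 had no match and held at most 0.383% of a library's counts. The deposited counts and the submitters' names for the samples gave the groups, by ventricle and storage time.

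Counts of the 9 RV libraries were fitted with edgeR 4.0.16 in R 4.3.3 (filterByExpr, TMM, quasi-likelihood F test). Genes with a fold above 1.5 and a p below 0.1 after Benjamini-Hochberg adjustment were called. The difference between RV and LV was fitted on 18 libraries. Marker sums were compared with exact two-sided permutation tests. Lists are given by counts and medians and were not tested. Named genes were the 12 largest increases and decreases and the 8 most abundant of protein-coding calls with a group mean of at least 5 CPM and groups that did not overlap, up to 5 genes of smallest p per list, genes of the proteins the study measured, 8 genes differing between ventricles, 5 in each direction of smallest p between 8 h and 4 h, and cell type markers. Some of them are not reported here. The members, lists and tests were chosen with earlier results of these data known. The script was tested on simulated counts.

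Between 0 and 4 h, residuals of same-numbered RV libraries correlated at 0.269, 0.111 and 0.134, and those of unlike-numbered ones at -0.22 to 0.0891. Between LV and RV at a time the values were 0.325 to 0.697 for same numbers and -0.542 to 0.165 for unlike ones. Ddx3y was low in 0 h replicate 2 and 4 h replicate 3 only, so that same-numbered RV libraries of these replicates differed in it between the times. The labels do not say what the number marks, and the pairing comes from these values. The replicate block was fitted as an alternative. Others were DESeq2 1.42.0 (also with length offsets), RLE scaling, no filter, 6 or 18 libraries, no mitochondrial genes, a Y-linked covariate, an adjusted p under 0.05, and each library left out (8 h libraries added after seeing the data, as was the NF-kB motif). Depth ran from 25951817 to 43417220 counts in the 6 libraries compared. Promoters came from a RefSeq table of GRCm38.p6.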

Additional observations from a re-analysis of the deposited data

Results flagged for a closer look

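The change from 0 to 4 h differed between RV and LV in 12 genes given in the text, by a test of the difference itself over 18 libraries with the same-numbered LV and RV pair of a storage time as a block. None of the 12 was called without the block. They comprise 7 named for the largest differences and 5 others, given last. Values are CPM normalized over all 18 libraries, and a positive difference means a more upward log2 change in RV.

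Tnfrsf12a, the TWEAK receptor, was at 34.6, 16.8 and 16.8 CPM at 0 h and 157, 99.7 and 86.6 CPM at 4 h in RV and 87.5, 41.3 and 36.7 CPM at 0 h and 133, 84.5 and 91.1 CPM at 4 h in LV, which is a difference of 1.39 (standard error 0.15, edgeR adjusted p = 0.0181). Ch25h, the cholesterol 25-hydroxylase, was at 2.28, 1.93 and 2.12 CPM at 0 h and 35.9, 17.9 and 21.4 CPM at 4 h in RV and 4.73, 7.26 and 4.36 CPM at 0 h and 24.3, 14.02 and 25.9 CPM at 4 h in LV, with a difference of 1.55 (standard error 0.30, edgeR adjusted p = 0.0961). In both genes every 0 h RV library was below its same-numbered LV library, while the 4 h levels of RV and LV overlapped.

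Depp1 was at 56.6, 31.5 and 26.3 CPM at 0 h and 7.64, 9.37 and 7.76 CPM at 4 h in RV and 65.6, 21.6 and 18.04 CPM at 0 h and 24.2, 31.2 and 28.5 CPM at 4 h in LV, with a difference of -2.03 (standard error 0.25, edgeR adjusted p = 0.023). All 4 h RV libraries were below all 4 h LV libraries, and the 0 h levels overlapped.

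Egr3, an immediate-early factor, was at 149, 48.6 and 50.1 CPM at 0 h and 174, 118 and 61.7 CPM at 4 h in RV and 167, 111 and 73.9 CPM at 0 h and 90.7, 58.7 and 37.1 CPM at 4 h in LV, with a difference of 1.53 (standard error 0.24, edgeR adjusted p = 0.0632). Each group spread over more than 2-fold, with replicate 1 the highest. Gm29013, an unprocessed pseudogene that may share reads with its parent gene, was at 22.9, 6.43 and 62.1 CPM at 0 h and 74.7, 28.01 and 123 CPM at 4 h in RV and 60.3, 38.8 and 77.4 CPM at 0 h and 18.2, 7.75 and 46.9 CPM at 4 h in LV, with a difference of 3.09 (standard error 0.47, edgeR adjusted p = 0.0538).

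The monocarboxylate transporter gene Slc16a13 was at 17.2, 6.77 and 6.07 CPM at 0 h and 31.1, 37.3 and 28.01 CPM at 4 h in RV and 24.8, 9.39 and 6.56 CPM at 0 h and 19.6, 15.9 and 13.5 CPM at 4 h in LV, with a difference of 1.37 (standard error 0.17, edgeR adjusted p = 0.023). Klhl34 was at 3.83, 2.78 and 1.796 CPM at 0 h and 4.92, 6.18 and 5.26 CPM at 4 h in RV and 8.695, 8.95 and 7.34 CPM at 0 h and 5.97, 7.78 and 4.71 CPM at 4 h in LV, with a difference of 1.43 (standard error 0.27, edgeR adjusted p = 0.0907). The 4 h levels of Slc16a13 were higher in every RV library than in every LV library, and the 0 h levels of Klhl34 were lower in every RV library.

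Hey1, the Notch target, was at 9.73, 9.28 and 12.3 CPM at 0 h and 3.72, 2.57 and 1.87 CPM at 4 h in RV and 9.21, 7.97 and 8.06 CPM at 0 h and 6.31, 5.88 and 2.795 CPM at 4 h in LV, with a difference of -1.16 (standard error 0.21, edgeR adjusted p = 0.0801). Sesn2 was at 6.96, 5.55 and 3.36 CPM at 0 h and 22.2, 15.5 and 12.6 CPM at 4 h in RV and 7.497, 6.25 and 4.14 CPM at 0 h and 13.6, 8.17 and 7.58 CPM at 4 h in LV, with a difference of 0.96 (standard error 0.17, edgeR adjusted p = 0.0801). Hbegf, the EGF receptor ligand, had a difference of 0.92 (standard error 0.17, edgeR adjusted p = 0.0907), Casp4 one of 0.77 (standard error 0.14, edgeR adjusted p = 0.0907) and Srxn1 one of 0.69 (standard error 0.13, edgeR adjusted p = 0.0916).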

How the results depend on the processing

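Of 120 named genes called at 4 h against 0 h in RV, all 120 kept their direction under every alternative, 116 stayed called at the same threshold under every alternative that left out no library, and 66 in each of the 6 fits without a library of 0 or 4 h. Most of them were picked for large folds or small p in these same values, so that this says little of the calls as a whole. Of all 902 higher and 572 lower calls, 220 and 65 were made in each of the 6 fits. At an adjusted p under 0.05 the counts fell to 549 higher and 252 lower. Leaving out 1 library gave 235 to 1219 higher and 79 to 847 lower genes, the least without 0 h replicate 2 or 3. At 8 h against 4 h DESeq2 called 49 genes where edgeR called 0. Pycard and Zfp46, which were not called, changed sign, as did Uty, Kdm5d, Eif2s3y and mt-Nd2, picked by the rule but not described, with 1 library left out. The log2 fold change of Pycard ran from -0.066 (without 4 h replicate 3) to 0.186 with 1 library left out, and that of Zfp46 from -0.051 (without 4 h replicate 3) to 0.14, with -0.028 without 0 h replicate 1 and -0.12 with DESeq2 length offsets. DESeq2 called 1209 higher and 775 lower genes, and 1184 and 738 with length offsets. No filter gave 985 and 496, RLE scaling 898 and 543, mitochondrial genes left out 898 and 589, the 6 libraries alone 1152 and 789, all 18 libraries 1072 and 827, and the Y-linked covariate 1067 and 685.

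With the replicate block the counts were 1236 and 790, and 899 of the 902 higher and 563 of the 572 lower genes were called in both fits. For the difference between RV and LV the block gave 46 genes where the fit without it gave 0, and leaving out a library pair with the block gave 0 to 28, with 14 without 0 h replicate 3 or without 4 h replicate 1. Beside the calls given with the results, the block added calls at 4 h for Gm29013, Klhl34, Tsku and Anxa1 and changed no other call of a named gene. The cause of these differences was not tested.

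In counts simulated for this comparison, 200 of 14442 genes were changed. Of these edgeR called 30% of genes changed 2-fold and 94% of those changed 4-fold. The changed genes were drawn only from the better counted ones. In this setting 2-fold changes were often missed with 3 libraries a group. The data gave 902 higher and 572 lower calls, far more than the 200 genes changed here, so that these shares need not hold for the data. Of 142 edgeR calls 18 fell on unchanged genes, and of 239 DESeq2 calls 75, so that the larger DESeq2 counts above may hold more false calls. The counts were drawn with spreads that edgeR had estimated, so that this cannot decide between the tools for the data.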

Other observations

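Of the called genes, 706 higher and 482 lower were in no list. The genes below were chosen after their values were seen. They are single genes and stand for no list. Tlr4, the receptor for endotoxin, was at 9.296, 8.92 and 7.25 CPM at 0 h and 17.9, 16.03 and 15.6 CPM at 4 h (log2 0.96, standard error 0.14, edgeR adjusted p = 0.00927). Clec4e, the receptor Mincle, was at 3.84, 2.22 and 1.18 CPM at 0 h and 15.2, 18.99 and 24.5 CPM at 4 h (log2 3.01, standard error 0.38, edgeR adjusted p = 0.00539), and Cybb, the catalytic subunit of the phagocyte oxidase, at 17.9, 19.3 and 15.9 CPM at 0 h and 46.6, 62.6 and 70.8 CPM at 4 h (log2 1.76, standard error 0.18, edgeR adjusted p = 0.00306). Spi1, a myeloid transcription factor, rose 2.301-fold. The sums of the macrophage markers of 172 to 273 CPM at 0 h and 208 to 243 CPM at 4 h overlapped, none of those 9 markers was called, and their part was not tested. The cytokine receptor genes Il4ra (4.34-fold), Osmr (5.501-fold), Tnfrsf1b (3.84-fold) and Il17ra (4.92-fold) rose.

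Hbegf, a ligand of the EGF receptor, was at 20.4, 16.2 and 11.8 CPM at 0 h and 131, 65.02 and 46.5 CPM at 4 h (log2 2.32, standard error 0.39, edgeR adjusted p = 0.0132). Runx1, a factor of blood cell development, was at 4.33, 2.88 and 2.56 CPM at 0 h and 10.03, 13.9 and 10.8 CPM at 4 h (log2 1.82, standard error 0.23, edgeR adjusted p = 0.00538). Stat3, the factor downstream of the Il6 family, rose 2.73-fold, Cebpb 2.89-fold and Bcl6 3.01-fold. The amino acid transporter Slc38a2 rose 2.68-fold, and the tubulin gene Tubb6 3.78-fold. Among genes that fell, Cygb, the cytoglobin of pericytes and fibroblasts, was at 54.7, 53.8 and 56.8 CPM at 0 h and 26.5, 29.95 and 24.3 CPM at 4 h (log2 -1.03, standard error 0.14, edgeR adjusted p = 0.00743). Cbx7, a Polycomb subunit, was at 21.4, 29.8 and 28.2 CPM at 0 h and 11.6, 14.3 and 13.4 CPM at 4 h (log2 -1.02, standard error 0.18, edgeR adjusted p = 0.0165), and Sox4 at 102, 90.8 and 50.1 CPM at 0 h and 22.6, 28.03 and 19.5 CPM at 4 h (log2 -1.79, standard error 0.27, edgeR adjusted p = 0.00927). Each gene of both paragraphs was called in all 6 fits that left out a library of 0 or 4 h.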
